A study of Mus musculus with 6 samples.

Results

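Collagen genes were described in RNA of whole mouse retina, as genes whose symbol reads Col, a number, the letter a and a number. The annotation (GENCODE M21, build GRCm38) holds 44 such genes. A row for 43 of them was present in at least 1 library (not for Col4a5), and 39 could be measured in the same transcripts in all 6 libraries (not Col5a1, Col6a1, Col6a3 and Col13a1), out of 25202 genes measured. The libraries came from wild type C57BL/6 mice at an age given as 5 weeks. Both groups received NMDA in the vitreous (2 μl, 100 mM), which overstimulates glutamate receptors and kills ganglion cells. The NMDA + SCF group (3 libraries) was given SCF 2 days later (2 μl, 50 ng/μl), the growth factor that binds the receptor c-kit and is also called stem cell factor, and the NMDA + PBS group (3 libraries) received PBS. The tissue was taken 1 week after the SCF or PBS injection. The number of mice behind a library is not given, so p values measure the spread between these libraries, which may be partly technical. Retina without NMDA was not analysed here, and the comparison asks only whether collagen transcripts differed with SCF after damage.

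Collagens are secreted proteins whose chains wind into a helix. Fibrillar collagens (types I, II, III, V, XI, XXIV and XXVII) assemble into fibrils that give sclera, cornea, vessel walls and vitreous their strength. Type IV collagens form the sheet-like network of basement membranes, which in the eye line the vitreal face of the retina, the retinal vessels and the pigment epithelium and make up the capsule of the lens. FACIT collagens sit on the surface of fibrils, and type IX, one of them, coats the type II fibrils of the vitreous. Type VIII collagens form short-chain lattices, among others in vessel walls and under the corneal endothelium.

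The libraries differed in ways that touch these genes. The deposited values are FPKM, in which fragments are divided by the length of the transcript and the size of the library. They use 2 transcript lists, and NMDA + PBS replicates 2 and 3 have a different list from the other 4 libraries. FPKM was therefore summed per gene over transcripts on both lists. Where 3 values are given for a group, they are in the order of replicates 1, 2 and 3. The whole fragments recovered from the FPKM values numbered 3404336 to 4440580 per library. Rod marker genes summed to between 1191 and 1848 FPKM and marker genes of Müller glia to between 2017 and 3969 FPKM, as the retina label asks. Nearly all of the Müller glia sum was Glul, at 1960.1 to 3898.7 FPKM. The summed FPKM of the 9 measured lens markers (of 10 listed) was 23.5, 169.9 and 295.7 in NMDA + PBS and 4867, 444.2 and 9137 in NMDA + SCF. Of these markers Foxe3 was at 0 in all 3 NMDA + PBS libraries. The 7 fibroblast markers, which include Col1a1 itself, summed to 62.9 FPKM in NMDA + PBS replicate 2 and to between 1.29 and 4.28 FPKM in the other 5 libraries. Without Col1a1 the sums were 25.1 FPKM and 1.09 to 4.18 FPKM, and most of the 25.1 FPKM was Lum. The part of these tissues or of the transcript list in any collagen result was not tested. In whole tissue, more cells of a type and more RNA per cell cannot be told apart.

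No collagen gene passed the thresholds of the study's methods in the test used here. In the study's own analysis, Col3a1 was listed as lower with SCF, and Col4a3 and Col4a4 as higher. The fitted direction for Col4a3 was the opposite here, at a log2 fold change of -0.42 (SE 0.44), but its sign is not settled. Of the 39 collagens 0 reached both an adjusted p of 0.001 and a 2-fold difference between the groups, where 0% of all genes did (limma on log2(FPKM + 1), Benjamini-Hochberg over 25202 genes). Before adjustment 2324 genes were at a p of 0.05 or less in limma, and voom gave 2 genes at an adjusted p of at most 0.05. The smallest adjusted p of a collagen was 0.536 in limma, which was also that of the gene with the smallest unadjusted p of all. At an unadjusted p of at most 0.05, 4 of the 39 collagens were higher in NMDA + SCF (Col4a2, Col9a2, Col4a6 and Col2a1), which is 10.3% of them, beside 4.33% of all genes. All 4 also had a fold change of at least 2, which together with that p was met upward by 1.41% of all genes. No collagen was lower at that p, beside 4.9% of all genes, or lower by 2-fold at that p, beside 2.63%. A fit of voom on the recovered fragments also gave 0 collagens at an adjusted p of at most 0.05, and 4 at an unadjusted p of at most 0.05, of which Col4a2, Col4a6 and Col9a2 were higher and Col19a1 was lower. The 4 became 2 without NMDA + PBS replicate 1 or without NMDA + SCF replicate 1, in both cases Col4a2 and Col9a2. A fit without NMDA + SCF replicates 1 and 3 together, the libraries highest in lens markers, has 1 NMDA + SCF library. That library is assumed to vary as the NMDA + PBS libraries do, so a lost call there says little. Only the fold changes of that fit are given below.

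**Figure D1:**
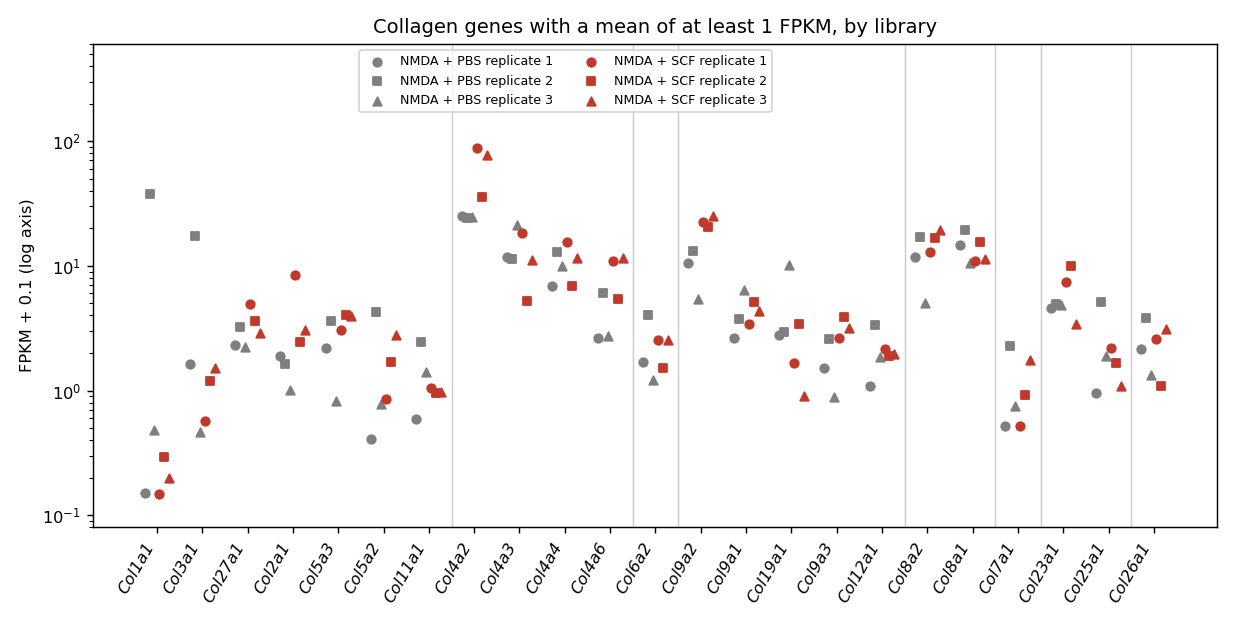
FPKM of the collagen genes with a mean of at least 1 FPKM, with 0.1 added, on a log axis, for the 3 NMDA + PBS libraries (grey) and the 3 NMDA + SCF libraries (red). Vertical lines separate the classes, from left to right fibrillar, type IV, type VI, FACIT, type VIII, type VII, transmembrane and other. Col1a1 stands at 37.7 FPKM in NMDA + PBS replicate 2 and under 0.4 FPKM in the other libraries, and Col4a2 is the highest collagen in the other 5 libraries.

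Type IV collagens were the most abundant class in 5 of the 6 libraries, and Col4a2 was the gene with the highest mean of all collagens. Col4a2 (chr8:11312805-11449287, plus strand) encodes a chain that is found with the chain of Col4a1 in nearly all basement membranes. Its FPKM was 25.2, 24.3 and 24.6 in NMDA + PBS and 88.0, 35.5 and 77.7 in NMDA + SCF. The groups did not overlap, and the 3 NMDA + PBS values lay within 1 FPKM of each other, while NMDA + SCF replicate 2 lay nearer to them than to the other 2 libraries of its own group. The means were 24.7 ± 0.470 and 67.1 ± 27.8 FPKM (SD, n = 3 libraries per group). The log2 fold change was 1.30 (SE 0.33, unadjusted p = 0.0053 and adjusted p = 0.536, limma). These values rested on 546 to 689 fragments in NMDA + PBS and 797 to 1937 fragments in NMDA + SCF. Without NMDA + SCF replicates 1 and 3 the log2 fold change was 0.51.

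Col4a6 (chrX:141165403-141474076, minus strand) encodes a chain of the basement membranes of the lens capsule, cornea and smooth muscle, among others. Its FPKM was 2.51, 5.90 and 2.65 in NMDA + PBS and 10.8, 5.28 and 11.5 in NMDA + SCF. The groups overlapped, since NMDA + SCF replicate 2 was below NMDA + PBS replicate 2. The log2 fold change was 1.13 (SE 0.39, unadjusted p = 0.0228 and adjusted p = 0.536, limma). The order of the NMDA + SCF libraries was the same for Col4a6 as for the summed lens markers, with replicate 3 highest and replicate 2 lowest. Replicates 1 and 3 were close for Col4a6, at 10.8 and 11.5 FPKM. In NMDA + PBS the orders differed, since the lens markers were highest in replicate 3 and Col4a6 in replicate 2. A link between them was not tested. Without NMDA + SCF replicates 1 and 3 the log2 fold change of Col4a6 was 0.49. Leaving out 1 library at a time ended its unadjusted call in 4 of 6 cases.

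The other chains of type IV did not separate the groups. Col4a3 and Col4a4 encode chains of the mature basement membranes of kidney and lung, which are also found in the eye. Col4a3 (chr1:82586921-82722059, plus strand) had 11.6, 11.3 and 21.1 FPKM in NMDA + PBS and 18.1, 5.11 and 11.1 FPKM in NMDA + SCF. Col4a4 (chr1:82448423-82586849, minus strand) had 6.83, 12.9 and 9.78 FPKM in NMDA + PBS and 15.4, 6.74 and 11.4 FPKM in NMDA + SCF. The groups overlapped for both genes, and NMDA + SCF replicate 2 was the lowest of the 6 libraries for both. The log2 fold changes were -0.42 (SE 0.44, adjusted p = 0.739) for Col4a3 and 0.14 (SE 0.35, adjusted p = 0.891) for Col4a4 by limma. The sign of neither is settled, since Col4a3 went to 0.02 without NMDA + SCF replicate 2, and Col4a4 went to -0.10 without NMDA + SCF replicate 1 and to -0.07 without NMDA + PBS replicate 1. The ratio of Col4a3 to Col4a4 was between 0.758 and 2.16 in all 6 libraries.

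**Figure D2:**
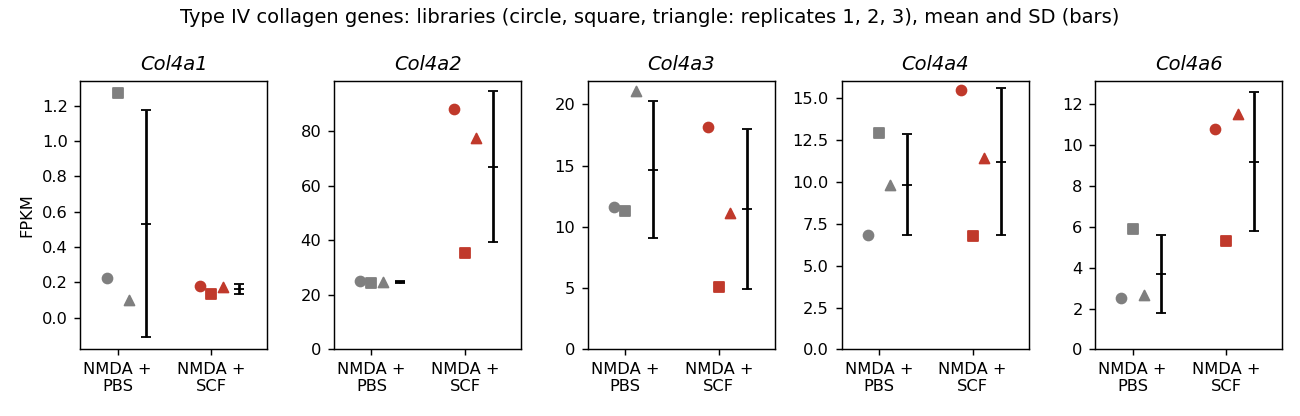
FPKM of 5 type IV collagen genes in the 3 NMDA + PBS libraries (grey) and the 3 NMDA + SCF libraries (red), each panel with its own axis, with the mean and SD of each group as bars. The libraries of the groups separate for Col4a2 only, and NMDA + SCF replicate 2 (square) is the lowest of its group in all 5 panels.

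Col4a1 (chr8:11198423-11312826, minus strand), the usual partner of Col4a2, was listed far below it. Its FPKM was 0.223, 1.27 and 0.102 in NMDA + PBS and 0.178, 0.131 and 0.176 in NMDA + SCF, on 3 to 7 fragments a library. The value of NMDA + PBS replicate 2 stood apart from the rest, and 1.12 of its 1.27 FPKM came from a retained intron transcript of 676 bases. The ratio of Col4a2 to Col4a1 ran from 19.1 to 493.7 over the 6 libraries. The listed transcripts of these genes differed in how much sequence is their own. Of the bases of the longest coding transcript of Col4a1, 1.86% lie in no other annotated transcript, against 75.5% for Col4a2. Low values of Col4a1 were therefore read as listed values and not as the level of the gene.

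The type IV genes lie in head-to-head pairs, with the starts of both members next to each other on opposite strands, an arrangement well known for this family. Col4a1 and Col4a2 overlap by 22 bases at their starts, from position 11312805 to 11312826 of chr8. Col4a3 and Col4a4 are separated by 71 bases. Col4a6 is separated by 1308 bases from the start of Col4a5, which had no row in the files used here. Sequence before the starts is shown for Col4a3 and Col4a4, whose levels are compared above, and for Col4a6, which was higher at an unadjusted p. It is from the RefSeq promoter table of GRCm38.p6, read 5′ to 3′. The first is chr1:82586850-82586920 on the plus strand, the whole interval between Col4a4 and Col4a3. The second is chrX:141474077-141474326 on the minus strand, the 250 bases before the start of Col4a6, with a match to the GC box (GGGCGG or its reverse complement CCGCCC) in capitals.
Col4a3 and Col4a4: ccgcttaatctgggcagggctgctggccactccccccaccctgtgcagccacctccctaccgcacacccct
Col4a6: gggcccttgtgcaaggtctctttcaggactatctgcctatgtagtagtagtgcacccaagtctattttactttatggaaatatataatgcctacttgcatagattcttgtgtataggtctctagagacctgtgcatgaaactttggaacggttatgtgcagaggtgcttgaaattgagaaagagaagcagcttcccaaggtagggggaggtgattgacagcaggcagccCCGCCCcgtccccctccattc

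Promoters of 35 collagen genes (38 entries, from 250 bases before to 50 after a start) were matched by symbol in that table and searched on both strands. The GC box occurred in 23 of the 38 entries (60.5%), beside 35.7% of all 32851 entries. A CCAAT box (CCAAT or ATTGG) occurred in 34.2% of the collagen entries and 37.4% of all, and TATAAA or TTTATA in 13.2% and 13.6%. The Col4a2 entry had 3 matches to the GC box and 1 to the CCAAT box, the Col4a6 entry had 1 and 0, and the Col4a4 entry had none of the 3 motifs. A match is a description of the letters only, and no binding was measured.

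Fibrillar collagens were low in 5 libraries and high in NMDA + PBS replicate 2. Col1a1 (chr11:94936224-94953042, plus strand) encodes the main chain of type I collagen, the fibril of sclera and bone. Its FPKM was 0.0495, 37.7 and 0.380 in NMDA + PBS and 0.0492, 0.194 and 0.0975 in NMDA + SCF. NMDA + PBS replicate 2 held 890 fragments of Col1a1 and no other library held more than 10. The log2 fold change was -1.78 with an SE of 1.27 (unadjusted p = 0.201 and adjusted p = 0.668, limma), so the difference was within the spread of the libraries. Without NMDA + PBS replicate 2 it was -0.11. Col1a2, the partner chain of Col1a1, had 0, 0.984 and 0.148 FPKM in NMDA + PBS and 0, 0.368 and 0.0898 FPKM in NMDA + SCF, and these came from retained intron transcripts only. Its coding transcript was on the list of NMDA + PBS replicates 2 and 3 alone and was listed at 0 in both.

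Col3a1 (chr1:45311538-45349706, plus strand), the type III chain that accompanies type I in vessel walls and soft connective tissue, was also highest in NMDA + PBS replicate 2. Its FPKM was 1.53, 17.3 and 0.364 in NMDA + PBS and 0.472, 1.08 and 1.40 in NMDA + SCF. Its log2 fold change of -1.03 (SE 0.90, adjusted p = 0.693, limma) became 0.07 without NMDA + PBS replicate 2. Col5a2, a type V chain built into type I fibrils, had 0.310, 4.18 and 0.680 FPKM in NMDA + PBS and 0.749, 1.605 and 2.71 FPKM in NMDA + SCF, with the same library highest. Of the 10 measured fibrillar collagens 5 were highest in that library (Col1a1, Col3a1, Col5a2, Col11a1 and Col1a2). Over all 39 collagens it was the highest library for 17 (43.6%), beside 18.8% of all genes. The same library was the highest for 5 of 9 fibril-associated proteoglycans and, Col1a1 aside, for 2 of 6 fibroblast markers (Dcn and Lum). Of the proteoglycans, Lum and Bgn had 17.8 and 18.9 FPKM there, against at most 1.92 and 3.21 FPKM in any other library.

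The other fibrillar collagens varied less. Col27a1 had 2.23, 3.16 and 2.11 FPKM in NMDA + PBS and 4.82, 3.51 and 2.79 FPKM in NMDA + SCF, with overlap between Col27a1 values of both groups. Col5a3 had 2.11, 3.52 and 0.720 FPKM in NMDA + PBS and 2.96, 3.90 and 3.85 FPKM in NMDA + SCF. Col11a1, a type XI chain of cartilage and vitreous fibrils, had 0.487, 2.34 and 1.30 FPKM in NMDA + PBS and 0.957, 0.862 and 0.867 FPKM in NMDA + SCF. Both groups overlapped for these 3 genes. Col11a2 and Col24a1 stayed at or below 0.405 FPKM in every library.

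Col2a1 encodes the chain of type II collagen, the fibril of cartilage and vitreous. Its FPKM was 1.79, 1.54 and 0.917 in NMDA + PBS and 8.32, 2.34 and 2.94 in NMDA + SCF, and the groups did not overlap. The log2 fold change was 1.06 (SE 0.45, unadjusted p = 0.0493 and adjusted p = 0.536, limma). These values came from a processed transcript of 491 bases with 2 or 3 fragments in each NMDA + PBS library and 4 to 14 in each NMDA + SCF library. With every transcript listed in each file the log2 fold change of Col2a1 was -0.37, and its unadjusted call ended without any of 5 of the 6 libraries, the exception being NMDA + SCF replicate 2.

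Summed over its measured members, the fibrillar class (10 genes) had 8.83, 71.1 and 7.03 FPKM in NMDA + PBS and 18.9, 14.5 and 15.4 FPKM in NMDA + SCF. The type IV class (5 genes) had 46.4, 55.6 and 58.2 FPKM in NMDA + PBS and 132.5, 52.8 and 111.9 FPKM in NMDA + SCF. Type IV exceeded fibrillar FPKM in 5 libraries, and the order was turned in NMDA + PBS replicate 2. The fibrillar share of both sums was 16.0, 56.1 and 10.8% in NMDA + PBS and 12.5, 21.5 and 12.1% in NMDA + SCF. Counted in fragments, the share was 11.6% in NMDA + PBS replicate 1 (95% Wilson interval 10.01 to 13.5%), 49.6% in replicate 2 (47.9 to 51.3%) and 7.83% in replicate 3 (6.77 to 9.04%). In NMDA + SCF the share of fragments was 7.27% (6.46 to 8.18%), 17.5% (15.7 to 19.4%) and 9.51% (8.51 to 10.6%). Such intervals hold the counting error alone, and the shares of the groups overlapped.

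The type IV sum was 53.4 ± 6.22 FPKM in NMDA + PBS and 99.1 ± 41.4 FPKM in NMDA + SCF (SD, n = 3), a ratio of means of 1.86. NMDA + SCF replicate 2 lay below 2 of the 3 NMDA + PBS libraries. Most of the difference was carried by Col4a2, since the ratio was 1.11 when Col4a2 was left out of the class. Col4a2 made up 54.4, 43.7 and 42.2% of type IV FPKM in NMDA + PBS and 66.4, 67.3 and 69.4% in NMDA + SCF. In NMDA + SCF replicate 2, Col4a3 and Col4a4 were the lowest of the 6 libraries, at 5.11 and 6.74 FPKM, which raises that share. The fibrillar sum was 29.0 ± 36.5 FPKM in NMDA + PBS and 16.2 ± 2.33 FPKM in NMDA + SCF, a ratio of 0.560 that turned to 2.05 without NMDA + PBS replicate 2. With Col1a1 and Col3a1 left out the fibrillar sums were 7.25, 16.1 and 6.29 FPKM in NMDA + PBS and 18.3, 13.2 and 13.9 FPKM in NMDA + SCF. Col2a1 held 1.79, 1.54 and 0.917 FPKM of them in NMDA + PBS and 8.32, 2.34 and 2.94 FPKM in NMDA + SCF. These Col2a1 values rested on 2 to 14 fragments a library. No p value is given for these sums, which are descriptions of chosen genes.

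**Figure D3:**
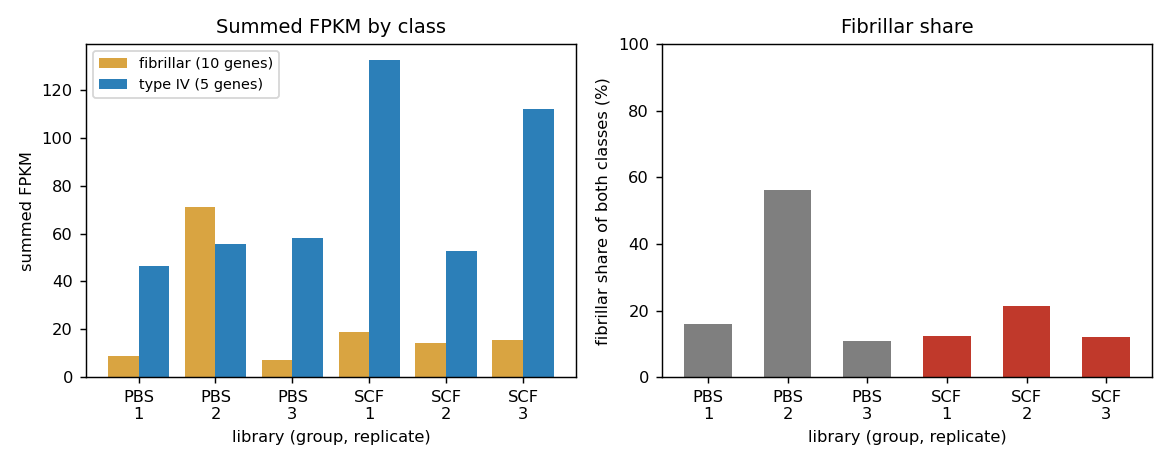
Left, summed FPKM of fibrillar (10 genes) and type IV (5 genes) collagens in each library. Right, the fibrillar share of both sums in percent, in the NMDA + PBS libraries (grey) and the NMDA + SCF libraries (red). The share is 56.1% in NMDA + PBS replicate 2 and between 10.8 and 21.5% in the other 5 libraries.

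Type IX collagen had a chain that was higher in all NMDA + SCF libraries than in any NMDA + PBS library, without the spread within NMDA + SCF seen for Col4a2. Col9a2 (chr4:121039385-121055322, plus strand) encodes 1 of its chains. Its FPKM was 10.4, 13.1 and 5.31 in NMDA + PBS and 22.3, 20.2 and 24.8 in NMDA + SCF. The groups did not overlap, and NMDA + SCF replicate 2, which was low for Col4a2, was here close to the other libraries of its group. The log2 fold change was 1.22 (SE 0.31, unadjusted p = 0.0055 and adjusted p = 0.536, limma), on 69 to 152 fragments in NMDA + PBS and 206 to 251 in NMDA + SCF. Without NMDA + SCF replicates 1 and 3 the log2 fold change was 1.08. Between the libraries on the same transcript list, NMDA + PBS replicate 1 had 10.4 FPKM and the NMDA + SCF libraries had 20.2 to 24.8 FPKM, with 1 control library and no test.

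Col9a3 and Col9a1 encode the partner chains of type IX. Col9a3 had 1.41, 2.51 and 0.795 FPKM in NMDA + PBS and 2.54, 3.81 and 3.05 FPKM in NMDA + SCF, which did not overlap by a margin of less than 0.1 FPKM. Its log2 fold change was 0.73 (SE 0.36, unadjusted p = 0.0792 and adjusted p = 0.545, limma). Col9a1 had 2.53, 3.65 and 6.24 FPKM in NMDA + PBS and 3.32, 5.00 and 4.27 FPKM in NMDA + SCF, with overlap between the groups. The ratio of Col9a2 to Col9a3 stayed between 5.21 and 8.78 in all libraries, while that of Col9a2 to Col9a1 ran from 0.852 to 6.71. Col9a3 and Col9a1 were measured mainly in short or shared transcripts, and the longest coding transcript of Col9a3 has 6.43% of bases of its own, against 63.3% for Col9a2.

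Groups without overlap were found for 4 collagens higher in NMDA + SCF (Col2a1, Col4a2, Col9a2 and Col9a3), 10.3% of the 39 beside 7.63% of all genes. Lower in NMDA + SCF without overlap was 1 collagen, Col22a1, 2.56% beside 6.45% of all genes, at 0.400, 0.514 and 0.435 FPKM in NMDA + PBS and 0.133, 0.359 and 0.361 FPKM in NMDA + SCF. Col22a1 rested on 12, 18 and 17 fragments in NMDA + PBS and 4, 11 and 11 in NMDA + SCF. For a single gene of 3 against 3 libraries the exact two-sided permutation test gives p = 0.1 at the least. Groups without overlap always give that value, so it adds no support for these 5 genes. NMDA + SCF replicates 1 and 3, the libraries highest in lens markers, were the highest libraries for 7 of the 39 collagens (Col2a1, Col4a2, Col4a6, Col9a2, Col10a1, Col15a1 and Col16a1), 17.9% beside 7.27% of all genes. Of these, Col10a1, Col15a1 and Col16a1 rested on 1 to 3 fragments in each of those libraries, and Col2a1 on 14 and 5.

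Among the remaining FACIT collagens, Col19a1 had 2.70, 2.85 and 10.1 FPKM in NMDA + PBS and 1.56, 3.31 and 0.811 FPKM in NMDA + SCF. The value of NMDA + PBS replicate 3 stood apart for Col19a1. Its log2 fold change was -0.99 (SE 0.53, adjusted p = 0.562, limma). Col12a1, a chain that sits on type I fibrils, had 0.996, 3.27 and 1.75 FPKM in NMDA + PBS and 2.04, 1.81 and 1.85 FPKM in NMDA + SCF, and the groups overlapped. Col14a1, Col16a1, Col20a1 and Col22a1 stayed below 2 FPKM in every library.

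Both type VIII chains were above 4 FPKM in every library. Col8a1 had 14.7, 19.4 and 10.4 FPKM in NMDA + PBS and 10.9, 15.5 and 11.2 FPKM in NMDA + SCF. Its partner chain Col8a2 had 11.6, 16.8 and 4.94 FPKM in NMDA + PBS and 12.8, 16.6 and 19.4 FPKM in NMDA + SCF. Both groups overlapped for both genes. The ratio of Col8a2 to Col8a1 was below 1 in the NMDA + PBS libraries (0.791, 0.868 and 0.473) and above 1 in the NMDA + SCF libraries (1.18, 1.07 and 1.73), given here as a description. These 2 genes lay on transcripts with 98.5 and 95.7% of bases of their own, and their longest coding transcripts held all their FPKM.

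In the transcripts on both lists, the genes of the other classes had lower means than Col8a1 and Col8a2, and the groups overlapped. Col6a1, a type VI chain listed for NMDA + PBS replicates 2 and 3 alone, had 48.0 and 21.04 FPKM there. Col6a2, a chain of the beaded filaments of type VI, had 1.603, 3.95 and 1.11 FPKM in NMDA + PBS and 2.42, 1.40 and 2.45 FPKM in NMDA + SCF. Col7a1, the anchoring fibril under epithelia, had 0.423, 2.17 and 0.648 FPKM in NMDA + PBS and 0.4199, 0.827 and 1.66 FPKM in NMDA + SCF, on 1 to 6 fragments a library. Col23a1, a transmembrane collagen, had 4.51, 4.83 and 4.75 FPKM in NMDA + PBS and 7.28, 9.93 and 3.33 FPKM in NMDA + SCF, from a coding transcript of 521 bases with 6 to 18 fragments. Col25a1, a transmembrane collagen of neurons, had 0.857, 4.99 and 1.80 FPKM in NMDA + PBS and 2.08, 1.58 and 0.992 FPKM in NMDA + SCF. Col26a1 had 2.06, 3.74 and 1.24 FPKM in NMDA + PBS and 2.497, 0.994 and 3.04 FPKM in NMDA + SCF. NMDA + PBS replicate 2 was the highest library for Col6a2, Col7a1, Col25a1 and Col26a1. The remaining members (Col6a4, Col6a5, Col6a6, Col10a1, Col15a1, Col17a1, Col18a1 and Col28a1) were below 0.8 FPKM in every library in the transcripts on both lists. For Col18a1 that was a coding transcript of 717 bases, and its longer transcripts were listed for NMDA + PBS replicates 2 and 3 alone, at up to 7.45 FPKM.

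Over the 39 collagens the fitted log2 fold change ran from -1.78 for Col1a1 to 1.30 for Col4a2, and 25 were above 0 (64.1%, beside 49.1% of all genes). The median was 0.07, beside -0.01 for all genes. It was 0.13 for the fibrillar and 0.14 for the type IV class, and 0.06 for the FACIT class. The sign of these medians is not settled, since the fibrillar median was -0.23 with all listed transcripts, 0.51 with a pseudocount of 0.1 and 0.60 with voom, and the type IV median was 0.64 with a filter at 0.5 FPKM and -0.10 without NMDA + SCF replicate 1. The medians of the 3 classes were thus small beside the range within each class, which was -1.78 to 1.06 in the fibrillar and -0.42 to 1.30 in the type IV class.

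**Figure D4:**
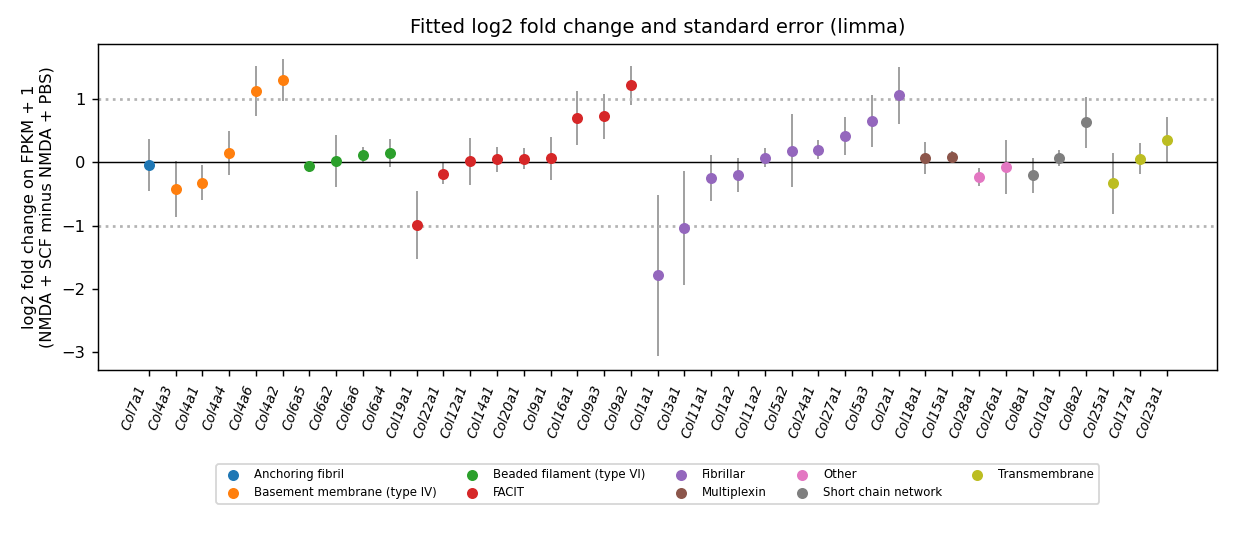
Log2 fold change on log2(FPKM + 1), NMDA + SCF minus NMDA + PBS, with its standard error (limma), for the 39 collagen genes by class. Dotted lines mark a 2-fold change in either direction. Col4a2, Col9a2, Col4a6 and Col2a1 lie above the upper line, and Col1a1 and Col3a1 lie below the lower line with standard errors of 1.27 and 0.90.

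How much of a collagen's sequence is its own went along with its listed level. Over protein-coding transcripts of all genes on both lists, the 2338 with under 5% of bases of their own had a median FPKM of 0.0917, the 8033 with 5 to 50% had 0.587, and the 6047 with 50% or more had 2.89. Of the collagens, the longest coding transcript was on both lists for 28 genes. At the low end Col4a1, Col17a1 and Col9a3 held 1.86, 1.99 and 6.43% of bases of their own, with mean FPKM of 0.1103, 0.0483 and 0.157 in that transcript. At the high end Col8a1, Col8a2 and Col4a4 held 98.5, 95.7 and 92.5%, with 13.7, 13.7 and 10.5 FPKM. Col10a1 and Col28a1 were low at 99.4 and 76.4% of own bases, so a low value also occurred in transcripts with sequence of their own. How the counting treated shared sequence was not tested, and comparisons of level between collagen genes are limited by it.

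**Figure D5:**
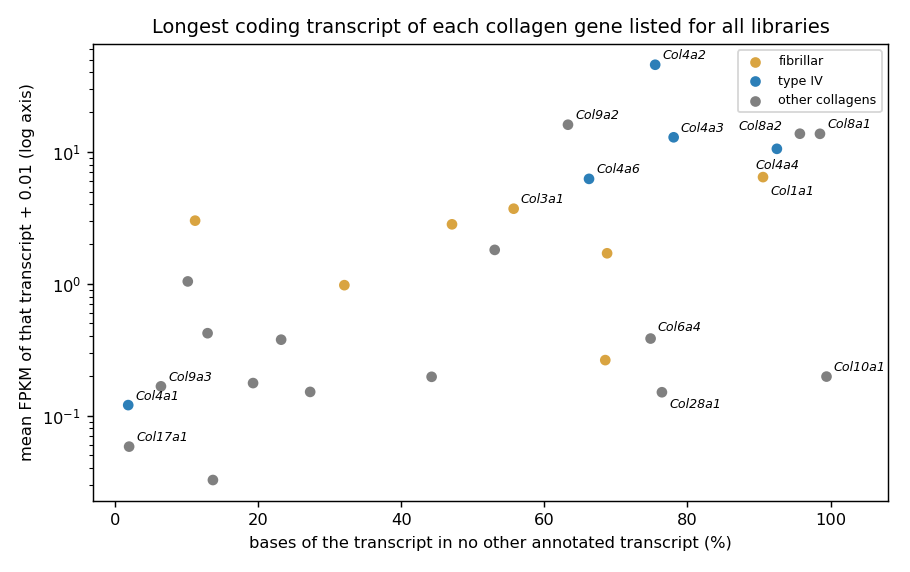
Mean FPKM over the 6 libraries, with 0.01 added and on a log axis, of the longest coding transcript of 28 collagen genes against the percent of its bases that lie in no other annotated transcript. Col4a1 sits at 1.86% and 0.1103 FPKM and Col4a2 at 75.5% and 45.7 FPKM, while Col10a1 and Col28a1 are low with most of their bases their own.

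Genes that make, assemble and bind collagens are counted here beside the 4.33% of all genes that were higher and the 4.9% that were lower at the same unadjusted p. Of 18 measured enzymes and chaperones of collagen hydroxylation and folding, 1 was higher (Ppib, a prolyl isomerase) and 1 lower (P3h4) at an unadjusted p of at most 0.05. The most abundant of them was P4hb, a subunit of prolyl hydroxylase, at 171.7 to 191.0 FPKM in NMDA + PBS and 183.1 to 193.7 FPKM in NMDA + SCF. P3h4 had 0, 15.7 and 10.96 FPKM in NMDA + PBS and 0 in all NMDA + SCF libraries, so NMDA + PBS replicate 1 was with the NMDA + SCF libraries, as in the transcript lists. Of 12 genes of propeptide cleavage and cross-linking 0 were at that p in either direction, and Pcolce, an enhancer of procollagen cleavage, was the highest at 7.82 to 41.0 FPKM. Of 7 receptors 0 were higher and 1 lower, Itgb1, an integrin subunit, at 0.980, 12.8 and 11.3 FPKM in NMDA + PBS and 0.793, 0.151 and 0.889 FPKM in NMDA + SCF, with NMDA + PBS replicate 1 again near the NMDA + SCF libraries. Ddr1, a collagen receptor kinase, was the highest of them at 3.997 to 7.35 FPKM. Of 10 collagenases and inhibitors 0 were at that p, and Timp2, an inhibitor of matrix proteases, was the highest at 71.8 to 123.8 FPKM. In these lists 0 genes had an adjusted p of at most 0.05 (limma).

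Among 11 laminins and partners in basement membranes 0 were at an unadjusted p of at most 0.05. Lamc1, a laminin chain, was the most abundant at 8.84, 12.6 and 13.8 FPKM in NMDA + PBS and 12.02, 10.5 and 10.7 FPKM in NMDA + SCF. Nid1, which links laminin to type IV collagen, is named after its values were seen, with 1.59, 3.10 and 1.48 FPKM in NMDA + PBS and 19.7, 1.70 and 19.3 FPKM in NMDA + SCF. NMDA + SCF replicates 1 and 3 were high for Nid1 and replicate 2 lay among the NMDA + PBS libraries (unadjusted p = 0.0509 and adjusted p = 0.536, limma). Of 9 fibril-associated proteoglycans 1 was higher at an unadjusted p of at most 0.05 and 0 were lower. It was Ogn, at 4.46, 9.70 and 7.20 FPKM in NMDA + PBS and 23.2, 8.96 and 19.2 FPKM in NMDA + SCF, with the same 2 libraries high. Fmod, a proteoglycan that binds type I fibrils, was the most abundant of them, at 7.91, 53.3 and 14.4 FPKM in NMDA + PBS and 32.3, 39.97 and 42.4 FPKM in NMDA + SCF.

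Markers of other tissues that could hold collagen are given beside these values, and their part in the collagen results was not tested. Of 5 measured markers of vascular endothelium (of 6 listed) 0 were at an unadjusted p of at most 0.05, and they summed to 38.5 to 86.7 FPKM in NMDA + PBS and 84.1 to 111.1 FPKM in NMDA + SCF. Most of that sum was Cldn5, at 78.5, 63.5 and 28.5 FPKM in NMDA + PBS and 74.3, 101.6 and 99.99 FPKM in NMDA + SCF. The groups overlapped for Cldn5. Cdh5 had 6.76 to 7.36 FPKM in NMDA + PBS and 7.41 to 8.69 FPKM in NMDA + SCF. Pecam1, Kdr and Tie1 were at or below 1.663 FPKM in every library. The pericyte markers Pdgfrb, Cspg4 and Kcnj8 were at or below 0.112 FPKM in every library, while Rgs5 had 76.7 to 97.6 FPKM and Myh11 0.208 to 1.53 FPKM. Acta2, the smooth muscle actin of the same list, had 0.660, 45.3 and 22.001 FPKM in NMDA + PBS and 0.492, 0 and 0.812 FPKM in NMDA + SCF (unadjusted p = 0.0268 and adjusted p = 0.536, limma). Its highest library was NMDA + PBS replicate 2, as for Col1a1 and Col3a1. Unlike Acta2, those 2 genes were low in replicate 3, at 0.380 and 0.364 FPKM. For Acta2, NMDA + PBS replicate 1 was near the NMDA + SCF libraries, as in the transcript lists. The 3 measured cartilage markers summed to 5.31 to 7.37 FPKM in NMDA + PBS and 0.291 to 1.43 FPKM in NMDA + SCF. That sum was mostly Cnmd, at 5.37, 6.66 and 4.99 FPKM in NMDA + PBS and 0, 0.626 and 0.777 FPKM in NMDA + SCF, while Matn3 and Acan were under 0.9 FPKM and overlapped between groups. The 3 measured corneal markers summed to 13.1 to 46.3 FPKM in NMDA + PBS and 3.13 to 11.98 FPKM in NMDA + SCF. Krt5 and Krt14 were lower without overlap, beside 6.45% of all genes, while Krt12 overlapped. The 5 ciliary body and iris markers summed to 1.46, 5.52 and 4.06 FPKM in NMDA + PBS and 9.82, 5.73 and 7.97 FPKM in NMDA + SCF. Of these 3 were higher without overlap (Otx1, Zic4 and Msx1), beside 7.63% of all genes, while Opn5 and Cldn2 overlapped. For Otx1 the highest NMDA + PBS value was 0.214 FPKM and the lowest NMDA + SCF value 0.218 FPKM. Msx1 had 0.460, 0.520 and 0.466 FPKM in NMDA + PBS and 3.32, 1.04 and 2.69 FPKM in NMDA + SCF (unadjusted p = 0.018 and adjusted p = 0.536, limma). The 5 measured markers of pigment epithelium (of 6 listed) summed to 799.7, 370.9 and 193.7 FPKM in NMDA + PBS and 711.4, 938.1 and 845.3 FPKM in NMDA + SCF, nearly all of it Ttr, which the ciliary body expresses too.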

How the data were processed

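The members and gene lists were chosen with earlier results of these data known. The authors deposited 1 file of transcript FPKM values a library. The study's methods describe mRNA enriched with oligo (dT) beads and an Illumina HiSeq. The aligner and counter are not given in the sources used here. The submitters' processing notes name mm9, but transcript positions were those of GRCm38 for 98.2% of 63313 Ensembl transcripts, and GRCm38 was used. Assembled transcripts without a gene name (8.85 to 11.4% of FPKM) were left out. FPKM was summed per gene over the 46933 transcripts on both lists (7529 and 8966 were on 1 list only). Groups were compared on log2(FPKM + 1) with limma 3.58.1 (R 4.3.3, variance trend, two-sided, condition only, all 6 libraries), a fold scale that understates changes of low genes. FPKM times transcript length gave whole fragments for 98.4 to 98.5% of values, and the fragments served for depth (14.1 to 18.2% of clean read pairs) and a voom fit. No library was a duplicate of another of its own group, since 20.9 to 53.8% of genes differed past sampling noise. Libraries of different groups were not compared in this way. Named are collagens with a mean of at least 1 FPKM, without group overlap, at an unadjusted p of at most 0.05, or of types I to IV. Of the lists of collagen partners, genes past a 2-fold change and that p, the highest gene, and genes behind small counts are named, with Nid1 as an exception. Marker genes are named where a list's sum rests on them. Plots and tables were made with Python 3.11.15. Alternatives were scaling, pseudocount, filter, transcripts, thresholds, block and left-out libraries.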

Additional observations from a re-analysis of the deposited data

Results flagged for a closer look

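Col6a3, a chain of the type VI beaded filaments, was not on both transcript lists and entered no comparison. Its coding transcript was listed for 4 libraries, where it had 0.0326 FPKM in NMDA + PBS replicate 1, 0.908 FPKM in NMDA + SCF replicate 1, 0.0319 FPKM in replicate 2 and 0.996 FPKM in replicate 3. NMDA + SCF replicates 1 and 3 stood above the only control library on that list, and replicate 2 did not. With 1 control library there is no test.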

How the results depend on the processing

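The number of collagens called was 0 in every alternative with an adjusted p, and 4 at an unadjusted p of 0.05 with a 2-fold change, where 1017 of all genes were called. Leaving out 1 library gave 0 to 191 called genes (191 without NMDA + PBS replicate 1, when the groups coincide with the transcript lists), 0 collagens called, and 2 to 6 collagens at an unadjusted p of 0.05. The fit without NMDA + SCF replicates 1 and 3, chosen after the data were seen, leaves 1 library in that group, so only its fold changes are given. Reversed log2 fold changes were -0.37 for Col2a1 (all listed transcripts, which differ between the libraries), -0.45 for Col4a4 (without NMDA + SCF replicates 1 and 3) and 0.0833 for Col1a1 (against NMDA + PBS replicate 1 alone). Over left-out libraries Col4a4 ranged from -0.10 to 0.44, Col4a1 from -0.52 to 0.00069, Col3a1 from -1.81 to 0.067 and Col4a3 from -0.81 to 0.016. Class medians changed sign under some alternatives, from -0.06 to 0.23 for all collagens, -0.05 to 0.20 for fibrillar and -0.10 to 0.44 for type IV over left-out libraries. The ratio of group means was 1.11 for type IV without Col4a2, and over left-out libraries 1.54 to 2.29 for type IV and 0.406 to 2.05 for fibrillar collagens. The cause of these changes was not tested. Replicate numbers did not pair the libraries (correlations of deviations -0.041, -0.039 and -0.064), and with a replicate block 0 genes were called, and 3 collagens and 1856 of all genes had an unadjusted p of at most 0.05. Upper quartile and median-of-ratios scaling ended the unadjusted call of Col2a1 only. With 14.1 to 18.2% of read pairs counted, collagens under 1 FPKM rest on few fragments. Adjusted p values from 3 libraries a group can miss large as well as moderate differences. The lens marker Crygs, with a log2 fold change of 4.82, had an adjusted p of 0.536 (limma).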

Other observations

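Some collagen transcripts were listed only for NMDA + PBS replicates 2 and 3 and have no value in the other 4 libraries. Col6a1, a type VI chain, had 48.0 and 21.04 FPKM there, Col5a1, a type V chain, had 9.87 and 4.07 FPKM, and the main transcript of Col18a1, the basement membrane collagen that holds endostatin, had 7.45 and 3.25 FPKM. A longer Col23a1 transcript had 3.96 and 1.63 FPKM. In all 4 cases replicate 2 was higher than replicate 3, and no comparison with NMDA + SCF can be made.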
